A study of Danio rerio with 8 samples.

Results

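Sterol synthesis was followed through 9 of the 28802 genes in a table of bulk RNA sequencing counts from sorted zebrafish hindbrain neurons. *msmo1*, which encodes the methylsterol monooxygenase that oxidizes sterol methyl groups, was chosen by its read counts, which were lower in *phox2a* null larvae. The other 8 genes (*hmgcra*, *hmgcs1*, *sqlea*, *lss*, *cyp51*, *nsdhl*, *dhcr7* and *sc5d*) were chosen by their place in the same pathway, to ask whether the pathway followed *msmo1*. All 9 symbols had a row in the table. The difference of *msmo1* between genotypes is therefore given as a description, without a test.

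Neurons were collected from larvae at 72 to 74 hpf, and 1 library was made for each genotype in each of 4 experimental repeats. Null larvae were *phox2a*-/-. Siblings were a mixture of *phox2a*+/+ and *phox2a*+/- larvae. Both genotypes carried Tg(isl1:GFP), Tg(UAS:E1b-Kaede) and the driver Tg(-6.7Tru.Hcrtr2:GAL4-VP16), on the mitfa-/- background, used to remove pigment. Neurons of several larvae were pooled for each library, and the sort on green fluorescence did not separate Kaede from GFP, so that *isl1*-labeled neurons were included. The driver also labels vestibular neurons outside the tangential nucleus. The comparison of genotypes used 3 of the repeats, lettered A, B and C by run code. The study excluded the last of its repeats, whose libraries varied most along the leading principal components, and named low counts as the likely reason. The count columns carry run codes in place of repeat numbers, and the run not used in the comparison (D) held by far the smallest null library. Gene reads ranged from 9579375 to 16992689 per null library and from 18657956 to 19968857 per sibling library. In repeat C the null library covered 11087 genes with 1 read or more, while the remaining 5 libraries covered 16675 to 18409, and its TMM factor was 0.518, against 1.104 to 1.22. *phox2a* itself had 1125, 2811 and 1015 reads in null libraries A, B and C, against 9355, 9465 and 4151 reads in sibling libraries. After normalization it had 144 ± 75.5 CPM in null larvae and 336 ± 118 CPM in siblings (SD, n = 3 each). The genotypes overlapped on that scale, by 205 CPM in null library C against 200 CPM in sibling library C. Scaled to gene reads alone they did not overlap. *phox2a* then had 66.2, 185 and 106 CPM in null libraries, against 468, 493 and 222 CPM in sibling libraries. A transcript with a small coding mutation may still be counted, so these reads do not by themselves check the genotype.

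Cholesterol synthesis starts from acetyl-CoA. HMG-CoA synthase and HMG-CoA reductase feed the mevalonate pathway, whose product squalene is epoxidized, closed into lanosterol and then stripped of methyl groups, desaturated and reduced. Transcription of most of these enzymes is driven in vertebrates by SREBP factors when membrane sterol is low, so that the enzymes often move together. In mammals, developing neurons make cholesterol themselves, and mature neurons take much of it from glia.

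*msmo1* had 0, 1 and 0 reads in the null libraries of repeats A, B and C, against 212, 251 and 253 reads in the sibling libraries. Levels are given in counts-per-million (CPM) of gene reads after TMM normalization, which corrects for the composition of each library. On this scale *msmo1* averaged 0.0199 ± 0.0345 CPM in null larvae and 10.7 ± 1.53 CPM in siblings (SD, n = 3 libraries each). Siblings lay close together, and every null library lay far below them. Summed over libraries, 1 null read stood against 716 sibling reads. Scaled to the TMM-adjusted library sizes of each genotype, the ratio was 0.00232. Its counting interval (95% exact binomial, 5.9e-05 to 0.0129) describes the reads that chose *msmo1* and is no test of the difference. *msmo1* passed the filter on low counts through the sibling libraries alone.

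None of the other 8 genes showed this pattern, but *lss* and *nsdhl* had too few reads to show it. By edgeR's quasi-likelihood test across 14824 genes with enough reads, none of the 6 that could be tested was called (adjusted p = 1.00 for each, unadjusted p from 0.15 to 0.93). A call needed an adjusted p below 0.05 together with a log2 fold change beyond 2 in either direction. Of all genes tested, 0% were called. Another 0.762% were lower and 2.46% higher in null larvae at an unadjusted p below 0.05, against 0 of the 6 in either direction. Of the 6 genes, 3 had negative and 3 had positive log2 fold changes, with a median of -0.01 over the 6, against -0.15 over all genes tested. Standard errors ranged from 0.90 to 2.65 on the log2 scale, so changes of several fold in either direction fell within the spread between libraries. DESeq2 called 128 of the 21539 genes it fitted in the same libraries, none of them among the 6.

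**Figure D1:**
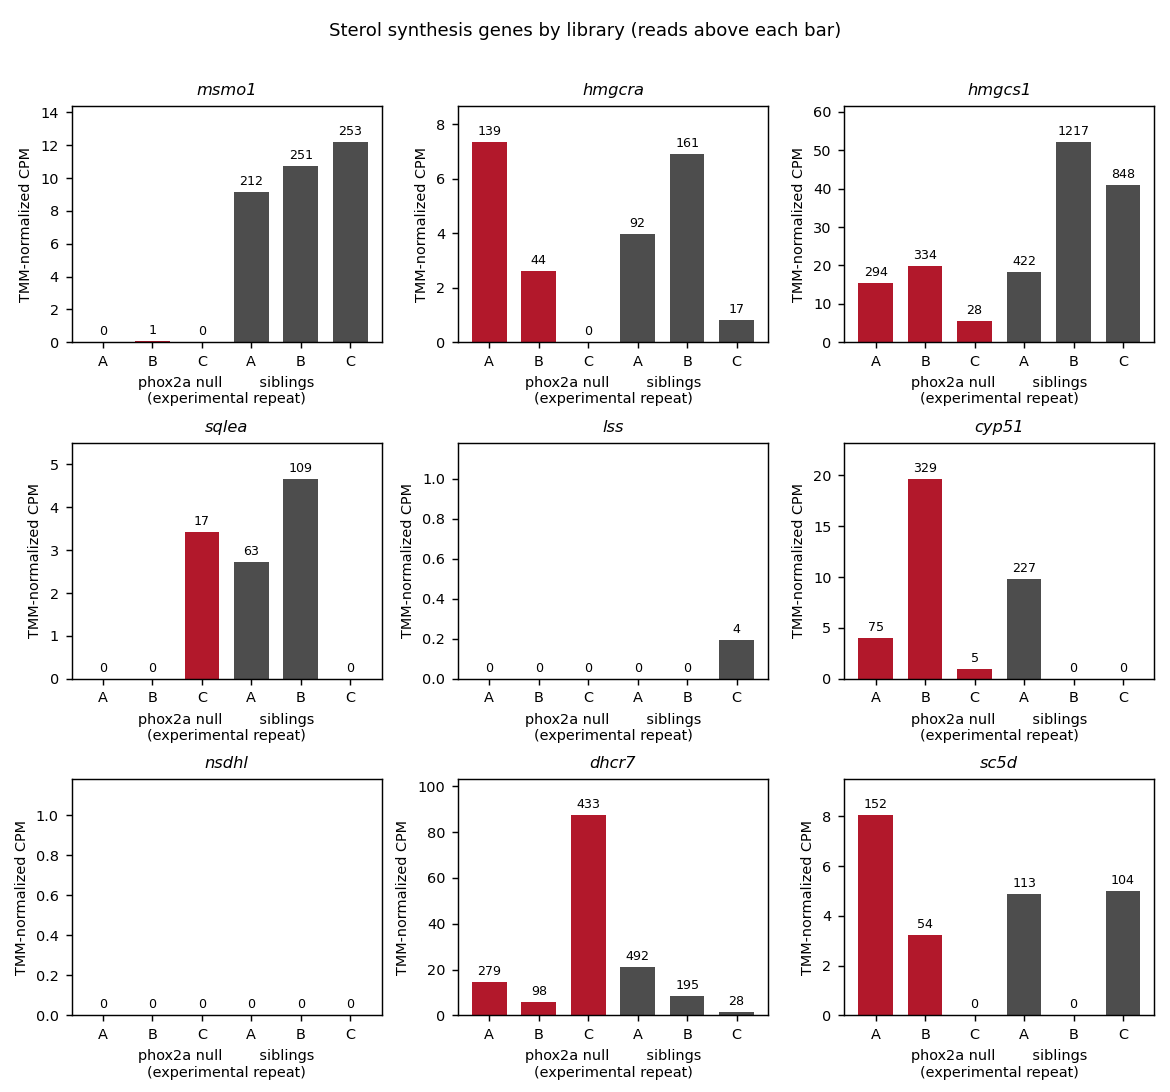
Level of each of the 9 genes by library, in TMM-normalized CPM, with *phox2a* null libraries (red) left of sibling libraries (grey) for repeats A to C and the read count above each bar. *msmo1* separated the genotypes, with 0 to 1 reads in null and 212 to 253 reads in sibling libraries. For the other genes with reads the 2 sets of bars overlapped. *lss* had 4 reads in sibling library C alone, and *nsdhl* had none.

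Among enzymes that feed the mevalonate pathway, *hmgcs1* (HMG-CoA synthase) had 294, 334 and 28 reads in null libraries A, B and C, against 422, 1217 and 848 reads in sibling libraries. Its level was 13.7 ± 7.33 CPM in null larvae and 37.1 ± 17.3 CPM in siblings (SD, n = 3 each). The null library was the lower of the pair in all 3 repeats, by -0.22, -1.36 and -2.75 on the log2 scale, but the null library of repeat B exceeded the sibling library of repeat A. The log2 fold change was -1.43 (standard error 0.90, edgeR unadjusted p = 0.15, adjusted p = 1.00). *hmgcs1* was the only tested member besides *msmo1* with the same direction in every repeat.

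*hmgcra* encodes HMG-CoA reductase, the rate-limiting enzyme of the pathway. It had 139, 44 and 0 reads in the null libraries and 92, 161 and 17 reads in sibling libraries A, B and C. The genotypes overlapped, with 3.33 ± 3.73 CPM in null larvae and 3.89 ± 3.04 CPM in siblings (SD, n = 3 each). Its log2 fold change was -0.22 with a standard error of 1.85, and the null library was the higher of the pair in repeat A and the lower in repeats B and C.

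Squalene is handled by *sqlea* (squalene epoxidase) and then by *lss* (lanosterol synthase). *sqlea* had 0, 0 and 17 reads in the null libraries and 63, 109 and 0 reads in the sibling libraries. Repeat C thus ran opposite to repeats A and B, and the log2 fold change of -1.15 had a standard error of 2.65. Without null library C, which held all null reads of *sqlea*, it was -8.67, a value that depends on the prior count. With the repeat as a block it was -5.94 in edgeR (adjusted p = 1.00) and -6.82 in DESeq2 (adjusted p = 0.23). *lss* had 4 reads in sibling library C and none in the remaining 5 libraries, too few for a test.

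After cyclization, *cyp51* removes a methyl group from lanosterol, and *msmo1* and *nsdhl* act in turn on the remaining ring methyl groups. *cyp51* had 75, 329 and 5 reads in the null libraries, against 227, 0 and 0 reads in the sibling libraries. All of its sibling level lay in repeat A, and 79.8% of its null level lay in repeat B. Levels were 8.21 ± 10.03 CPM in null larvae and 3.26 ± 5.65 CPM in siblings (SD, n = 3 each), a log2 fold change of 1.34 (standard error 2.43, edgeR adjusted p = 1.00). With the repeat as a block, DESeq2 called *cyp51*, with a log2 fold change of 6.68 (adjusted p = 0.047), although its null library was the lower of the pair in repeat A. That fit called 287 of 23680 genes, and edgeR with the same block did not call *cyp51* (adjusted p = 1.00).

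*nsdhl*, the sterol dehydrogenase that acts after *msmo1*, had no read in any of the 8 libraries. The limit set by finding no read is 3 reads, or 0.177 to 0.313 CPM in null libraries and 0.150 to 0.161 CPM in sibling libraries before TMM normalization, repeat D aside, a limit that covers counting error only. In RefSeq's annotation of GRCz12tu, a later build than the one used for these counts, the span of *nsdhl* meets that of *cetn2*. Reads that fitted more than 1 gene were kept out of the gene counts, and the part of this in the count of 0 was not tested.

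The last steps belong to *sc5d* (the sterol desaturase) and *dhcr7* (the final reductase). *sc5d* had 152, 54 and 0 reads in the null libraries, against 113, 0 and 104 reads in the sibling libraries. The genotypes overlapped, with 3.76 ± 4.05 CPM in null larvae and 3.29 ± 2.85 CPM in siblings (SD, n = 3 each), a log2 fold change of 0.20 (standard error 2.23).

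*dhcr7* and *hmgcs1* were the only members with at least 10 reads in each of the 6 libraries. *dhcr7* had 279, 98 and 433 reads in the null libraries, against 492, 195 and 28 reads in the sibling libraries. The null library was lower by -0.51 and -0.48 on the log2 scale in repeats A and B and higher by 5.57 in repeat C. Null library C held 80.9% of the normalized null level, and the log2 fold change of 1.80 (standard error 1.35, edgeR unadjusted p = 0.22) was -0.01 without it.

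**Figure D2:**
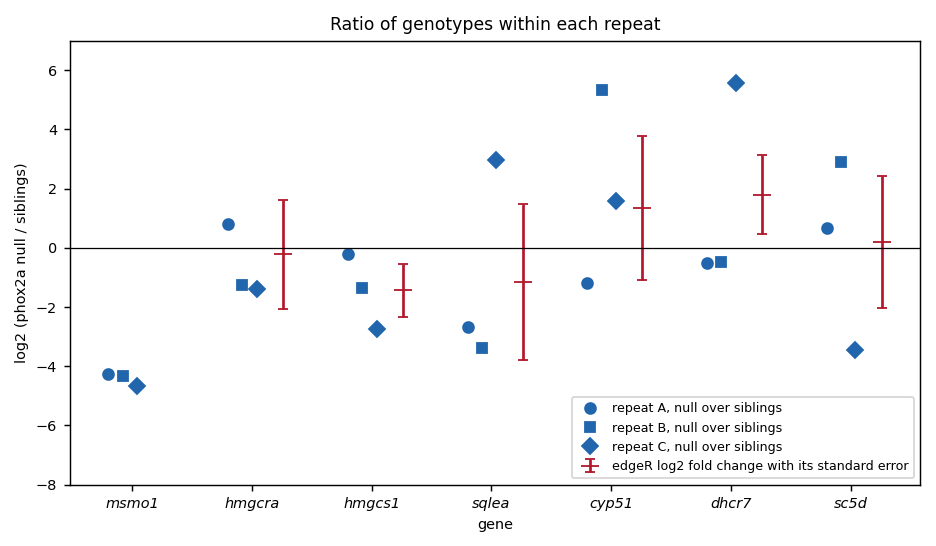
Log2 ratio of the null over the sibling library within repeats A, B and C (blue symbols, after adding 0.5 CPM to each level), and the edgeR log2 fold change with its standard error (red). *msmo1* lay between -4.67 and -4.27, a range that the added 0.5 CPM limits, and its fitted value is not drawn. Of the other 6 genes tested, 5 had ratios on both sides of 0, and *hmgcs1* lay between -2.75 and -0.22.

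Reads of these genes were often present in some libraries of a genotype and absent from others. Of the 9 genes, *sqlea*, *cyp51* and *sc5d* had at most 3 reads in 1 sibling library and at least 50 in another, as did 9.74% of all genes tested. Among null libraries the same held for *hmgcra* and *sc5d*, and for 35.5% of the genes tested. With null library C left out it held for none of the 9 genes and for 7.39% of the genes tested. At least 10 reads were found for 5, 5 and 3 of the 9 genes in null libraries A, B and C, against 7, 5 and 5 in the sibling libraries.

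*msmo1* was set among all genes by its read pattern, again as a description of the values that chose it. At least 100 reads in every sibling library were found for 9323 genes, and 13 of these (0.139%), *msmo1* included, had at most 3 reads in each null library. The mirrored pattern was found for 0 of the 4336 genes with at least 100 reads in every null library. With null library C left out, the counts were 16 of 9323 and 6 of 9014. No other gene of the sterol lists was among the 13. The number of genes whose null libraries all lay below the sibling libraries was 7.53% of those tested, and 3.1% lay above. Of the 9 genes only *msmo1* did either.

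Of 11227 genes with at least 5 CPM on average, those with the pattern most like *msmo1* over the 6 libraries were *boka* (Pearson r of log2 levels 0.999), *asah1b* (0.996), *rxfp2a* (0.995), *pon2* (0.988) and *satb1a* (0.987). They encode a Bcl2 family protein, an acid ceramidase, a relaxin receptor, a paraoxonase and a chromatin organizer. *boka* had 1, 0 and 0 reads in the null libraries, against 340, 403 and 516 reads in the sibling libraries. *hmgcs1* had a coefficient of 0.746 and ranked 363, and *cyp51* (-0.486) and *dhcr7* (-0.491) had negative coefficients. Within repeats *dhcr7* was lower in null libraries A and B (-0.51 and -0.48) and higher in null library C alone (5.57). The remaining members were below 5 CPM. These coefficients rest on 6 libraries that share their depth and composition between genes. They also largely restate the difference between genotypes by which *msmo1* was chosen, so they are a description and no test of whether a gene follows it.

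The libraries of repeat D, which played no part in the choice of *msmo1*, held reads of *dhcr7* alone among the 9 genes, with 3 reads in null larvae and 2891 reads in siblings. *msmo1* had 0 reads in both. The null library of repeat D had 735217 gene reads, and the sibling library had 15865368 gene reads on 6211 genes. Of the projection and motor neuron markers, *slc17a6a*, *slc17a6b*, *chata* and *tbx20* were also at 0 reads in this sibling library. In the same lists *evx2*, *isl1*, *phox2bb* and *slc18a3a* had 3804, 4487, 453 and 689 reads there. Markers were thus present for some genes and absent for others, and a count of 0 there was not read as a limit on the level in the cells. *dhcr7* reached 182 CPM in that library.

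The wider pathway was described through 5 lists of 73 genes, of which 67 had a row and 49 had enough reads for the test. Of the 49, 26 had negative and 23 positive log2 fold changes (median -0.13, against -0.15 over all genes tested). Only *hmgcrb*, which was higher, had an unadjusted p below 0.05 in edgeR, against 2.46% higher and 0.762% lower over all genes tested. None was called by edgeR or by DESeq2. DESeq2 gave no adjusted p for *hmgcrb* (log2 fold change 3.82) or *abca1a* (2.57), so it could not call them. The null libraries all lay below the sibling libraries for 2 of the 49 genes and all above them for 2, against 7.53% below and 3.1% above over all genes tested.

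Of 15 other sterol synthesis enzymes in the table, 11 were tested, with a median log2 fold change of 0.07. *hmgcrb*, the second gene for HMG-CoA reductase, had 546, 556 and 6869 reads in the null libraries, against 1083, 890 and 1004 reads in the sibling libraries. It was lower in the null libraries of repeats A and B, by -0.68 and -0.20 on the log2 scale, and higher by 4.82 in repeat C. Null library C held 95.7% of its null level, and the log2 fold change of 3.44 (standard error 1.43, edgeR unadjusted p = 0.042, adjusted p = 1.00) was -0.53 without it. *sqleb*, the second squalene epoxidase gene, had 20 reads in sibling library C and none in the remaining 5 libraries of repeats A to C.

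*mvk*, the mevalonate kinase, had 147, 1 and 17 reads in the null libraries, against 269, 225 and 279 reads in the sibling libraries. Every null library lay below every sibling library (3.75 ± 3.87 CPM in null larvae and 11.6 ± 1.91 CPM in siblings, SD, n = 3 each), yet its log2 fold change of -1.62 had a standard error of 1.56. *tm7sf2*, a sterol reductase that acts between *cyp51* and *msmo1*, also separated the genotypes. It had 487, 87 and 13 reads in the null libraries and 771, 1417 and 975 reads in the sibling libraries, a log2 fold change of -2.06 (standard error 1.04, edgeR unadjusted p = 0.080, adjusted p = 1.00).

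*lbr*, the lamin B receptor, carries the same reductase activity as *tm7sf2*. It had 1579, 1295 and 569 reads in the null libraries, against 1793, 1603 and 779 reads in the sibling libraries. After TMM normalization every null library lay above the sibling range, the closest by 77.4 CPM in null library B against 77.2 CPM in sibling library A (91.9 ± 20.03 CPM in null larvae and 61.2 ± 20.9 CPM in siblings, SD, n = 3 each), a log2 fold change of 0.59 (standard error 0.59). The genotypes overlapped when levels were scaled to gene reads alone. For *mvk* and *tm7sf2* the separation held on both scales.

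**Figure D3:**
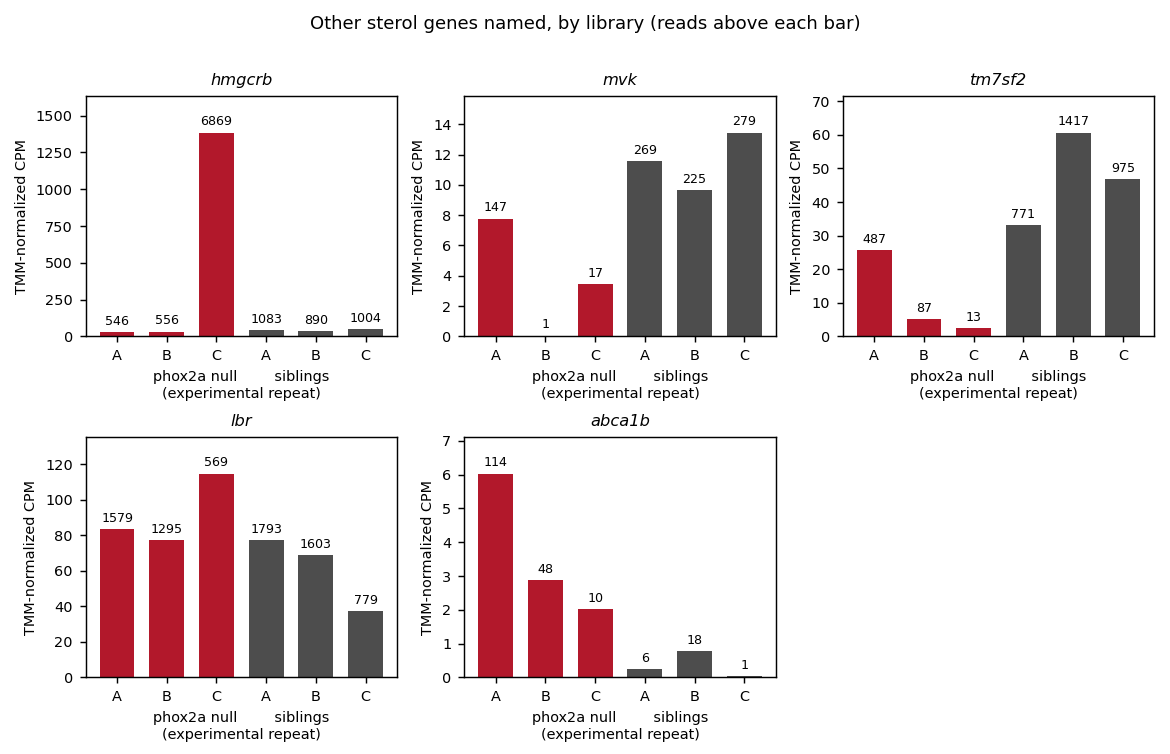
Levels of 5 other sterol genes by library, in TMM-normalized CPM, with *phox2a* null libraries (red) left of sibling libraries (grey) and the read count above each bar. *mvk* and *tm7sf2* lay lower in all null libraries, *lbr* and *abca1b* higher, and *hmgcrb* stood out in the null library of repeat C. Scaled to gene reads alone, *lbr* overlapped between genotypes.

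Of the SREBP regulators, all 10 genes in the table were tested (7 negative and 3 positive log2 fold changes, median -0.45), and 8 had reads in all 6 libraries. In null library C *srebf1* had 1 read, and *ubxn8* and *rnf139* had 0 reads. *srebf2*, the factor that drives sterol genes, had 1633, 709 and 90 reads in the null libraries, against 2878, 1868 and 2237 reads in the sibling libraries. Its levels were 49.0 ± 34.6 CPM in null larvae and 104 ± 22.2 CPM in siblings (SD, n = 3 each), lower in the null library of each repeat, a log2 fold change of -1.08 (standard error 0.71, edgeR unadjusted p = 0.16). The genotypes overlapped, with 86.4 CPM in null library A against 80.0 CPM in sibling library B. The choice of *srebf2* as an example was made after its values were seen. *insig1*, which holds SREBP in the endoplasmic reticulum and is itself a sterol-responsive gene, had the most reads of this list. It reached 278 ± 57.8 CPM in null larvae and 204 ± 47.7 CPM in siblings (SD, n = 3 each), a log2 fold change of 0.45 (standard error 0.48).

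For sterol uptake, storage and transport, 14 genes were tested, with 10 negative and 4 positive log2 fold changes (median -0.26). *vldlr*, a lipoprotein receptor that also binds reelin, had the most reads and reached 215 ± 40.8 CPM in null larvae and 225 ± 39.5 CPM in siblings (SD, n = 3 each), a log2 fold change of -0.07 (standard error 0.47). The sign of its log2 fold change turned under RLE scaling (0.053). For sterol efflux and turnover, 8 genes were tested, 4 in each direction (median 0.95).

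Both zebrafish genes for the cholesterol exporter ABCA1 were in that list. *abca1b* had 114, 48 and 10 reads in the null libraries, against 6, 18 and 1 reads in the sibling libraries, with no overlap between genotypes on either scale (3.64 ± 2.11 CPM in null larvae and 0.359 ± 0.372 CPM in siblings, SD, n = 3 each). Scaled to gene reads alone, *abca1b* nearly met between genotypes, at 1.04 CPM in null library C and 0.938 CPM in sibling library B. Its log2 fold change of 3.31 had a standard error of 1.74 (edgeR unadjusted p = 0.092, adjusted p = 1.00). *abca1a* had 2534, 1479 and 7485 reads in the null libraries and 2507, 2093 and 3596 reads in the sibling libraries. Its log2 fold change of 2.23 was -0.16 without null library C, which held 87.2% of the null level. All 6 tested genes of fatty acid synthesis had log2 fold changes above 0 (0.006 to 1.67), as did 6535 of the 14824 genes tested. *elovl6* (0.006) and *acaca* (0.05) lay close to 0. *acsl3b* and *elovl1b* were lower in the null libraries of repeats A and B and higher in repeat C (log2 ratios 3.07 and 5.29). *scdb*, a fatty acid desaturase, had 407 ± 327 CPM in null larvae and 192 ± 53.7 CPM in siblings (SD, n = 3 each). Null library C held 63.9% of its null level, and its log2 fold change of 1.08 was 0.19 without that library.

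**Figure D4:**
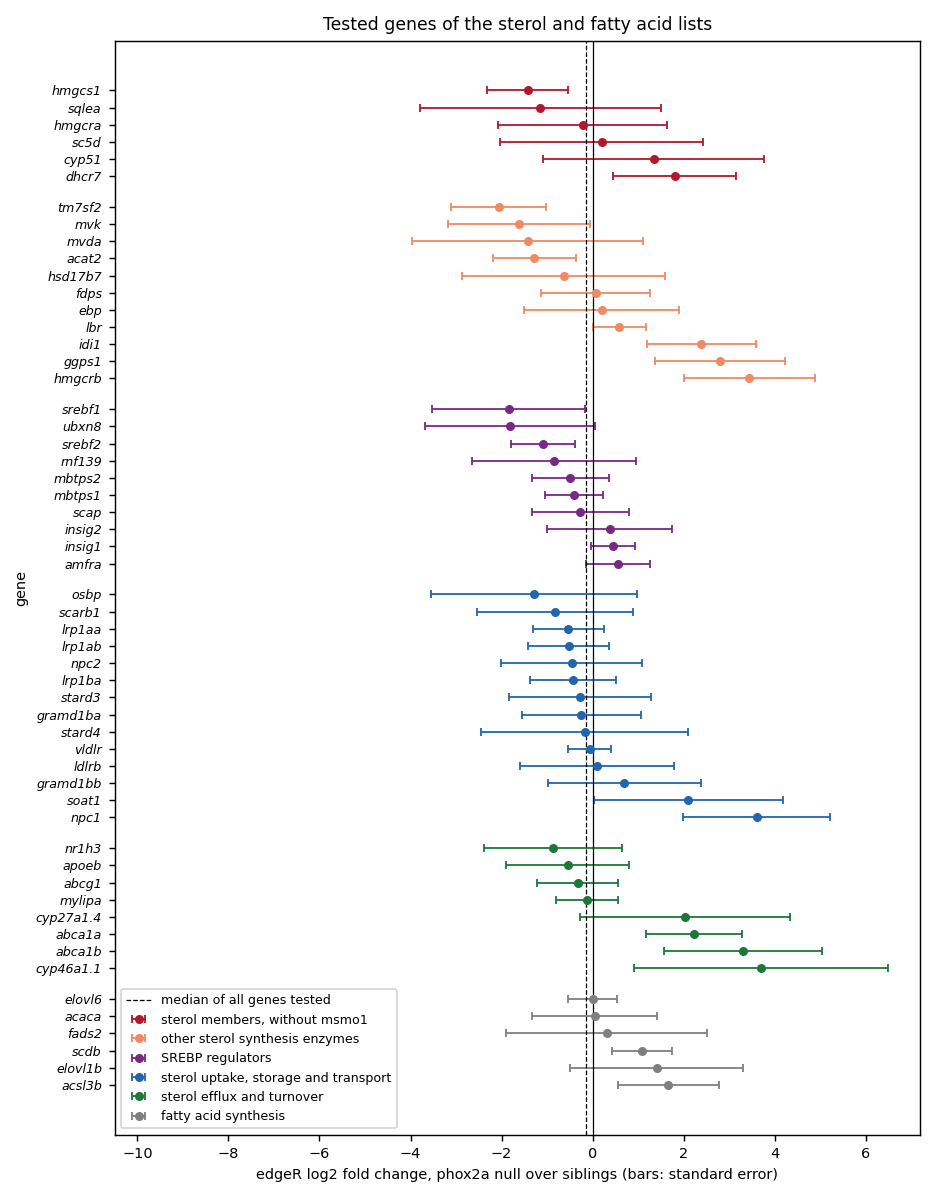
edgeR log2 fold changes, null over siblings, of the tested genes in the 6 lists, with bars for the standard error; *msmo1* is left out because it was chosen on this difference. The dashed line marks the median of all genes tested (-0.15), and each list but fatty acid synthesis has genes on both sides of it.

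After TMM normalization, neuronal marker genes summed to 20638 to 29485 CPM in null libraries and 14846 to 20530 CPM in sibling libraries. Neuronal RNA was thus abundant in all. *evx2*, *slc17a6a* and *slc17a6b* summed to 655 to 818 and 439 to 687 CPM. Null library C was highest in both sums with its TMM factor of 0.518, and lowest in both without TMM factors. Without these factors *evx2* had 440, 491 and 218 CPM in null libraries A, B and C. In sibling libraries it had 340 to 460 CPM. *slc17a6a* had only 2 reads in null library C, against 1481 and 703 in null libraries A and B and 298 to 2819 in sibling libraries. On the TMM scale, some marker sums of other cell types moved with the genotype or with single libraries. The 10 genes of oligodendrocytes and Schwann cells, which make much sterol for myelin, summed to 649 to 1228 CPM in null libraries and 450 to 620 CPM in sibling libraries. Null library C reached 872 CPM there with its TMM factor of 0.518, and without TMM factors the genotypes overlapped. Single genes of the marker lists are given in CPM without TMM factors. In that list *plp1b* had 523, 627 and 382 CPM in null libraries A, B and C, against 229, 446 and 509 CPM in sibling libraries. *mbpa* had 427, 9.83 and 0 CPM in the null libraries, against 126, 0 and 0 CPM in the sibling libraries. *mpz* was at 0 in all null libraries and at 0.951 to 8.20 CPM in sibling libraries. Sums of the 11 genes of radial glia and astrocytes overlapped (1782 to 2406 CPM in null libraries and 1704 to 2214 CPM in sibling libraries), and *gfap* was at 0 in all null libraries and in sibling library A and at 0.573 and 1.29 CPM in sibling libraries B and C. The 5 genes of cranial motor neurons in the table summed to 1789, 2402 and 1032 CPM in null libraries A, B and C. In sibling libraries they summed to 3268, 2079 and 1636 CPM. Without TMM factors, *isl1*, *chata*, *tbx20* and *slc18a3a* had lower CPM in the null library of each repeat, *slc18a3a* only just in repeat B (461 against 463 CPM). With TMM factors *slc18a3a* was higher in null library B than in sibling library B. *phox2bb* was lower in null libraries A and C but higher in null library B (1484 against 899 CPM). The 12 skin genes reached 8440 CPM in null library C, where *dhcr7*, *hmgcrb* and *abca1a* were highest, against 2.57 to 84.5 CPM in the other null libraries and 75.1 to 3294 CPM in sibling libraries. Genes of hepatocytes and yolk syncytial layer were also highest in null library C, at 261 CPM, against 33.3 and 7.83 CPM in null libraries A and B and 0.043 to 34.3 CPM in sibling libraries. Muscle genes were highest there too, at 105 CPM, against 71.1 and 7.41 CPM in null libraries A and B and 11.2 to 18.1 CPM in sibling libraries. Without TMM factors, muscle genes were higher in null library A than in null library C. Skin genes and those of hepatocytes and yolk stayed highest in null library C, skin genes with a narrower lead over sibling library A. The 10 genes of microglia and macrophages stayed at 1.31 CPM or below. The part of these cells in the sterol values was not tested, and in sorted pools fewer cells of a type and less RNA per cell cannot be told apart.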

How the data were processed

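The authors aligned reads to GRCz11, to which the Kaede and GFP sequences were added, and deposited raw counts, whole reads per gene and library (SMART-Seq HT libraries, NovaSeq). The aligner and counting program are not given in the sources used here. A second deposited table, divided by size factors set over all libraries, was not used. The 5 rows that name no gene held 84.3% of listed reads in null library C and 41.2% to 55.2% in the other libraries of repeats A to C. Reads that did not align made up 62.4% of listed reads in null library C and 11.8% to 16.1% in those others. These rows entered neither library sizes nor tests. Columns carry genotype and run code.

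Null and sibling libraries of repeats A to C entered edgeR 4.0.16 (filterByExpr, TMM, glmQLFit, glmQLFTest, Benjamini-Hochberg adjustment) in R 4.3.3. Alternatives were DESeq2 1.42.0 with and without the repeat as a block, RLE factors, gene reads alone, no filter, 10 reads in every library, a robust fit, the repeat as a block in edgeR, all 4 repeats, and leaving out each library. Scripts were tested on simulated data. The run pairs the libraries, since each repeat gave both genotypes; deviations from genotype means correlated at 0.027, 0.082 and 0.050 in repeats A, B and C. Members and lists were chosen with earlier results of these data known. Named genes are the members, the paralogs *hmgcrb* and *sqleb*, *phox2a* and the 5 genes most like *msmo1*. Genes of the wider lists were named for an unadjusted p below 0.05 or genotypes that did not overlap. The gene of each wider list with the highest mean TMM-normalized level was named too. For the other sterol synthesis enzymes this was *hmgcrb*, through null library C, although *fdps* and *acat2* had more reads. Outside these rules, *srebf2*, *elovl6*, *acaca*, *acsl3b*, *elovl1b*, *scarb1*, *fdps* and *acat2* were named after their values were seen. Of the wider lists, 1 gene is not reported here and is left out of their counts.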

Additional observations from a re-analysis of the deposited data

How the results depend on the processing

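edgeR called 0 genes in the main comparison, under RLE factors, gene reads alone, no filter, 10 reads in every library, a robust fit, the replicate block (0 genes) and in each of the fits without 1 library (0 to 0). It called 40 of 13260 genes over all 4 repeats (39 higher, 1 lower), of which *scarb1* was in the sterol lists. DESeq2 called 128 of 21539 genes, and 287 of 23680 with the replicate block. At an unadjusted p below 0.05, 364 genes were higher and 113 lower in null larvae, against 122 and 111 with gene reads alone, a scaling that moved the median of all genes from -0.15 to -0.36. The median log2 fold change of the 6 tested members other than *msmo1* was -0.01 (all genes -0.15). With the replicate block it was -0.32 (all genes -0.56), and in DESeq2 with that block -0.27 (all genes -0.10). Without 1 library it ranged from -0.82 (without null library A, all genes -0.36) to 0.18 (without sibling library A, all genes -0.12). With *msmo1*, which was chosen for being lower, the median over 7 members was -0.22. It was then -1.36 with the replicate block, -1.26 in DESeq2 with that block and -1.01 to -0.011 without 1 library.

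The direction of *hmgcs1*, *sqlea*, *mvk*, *tm7sf2*, *lbr*, *scdb* and *abca1b* did not turn in any alternative that could fit them. Without 1 library, *sqlea* ranged from -8.67 (without null library C) to -0.30 (without sibling library B), *mvk* from -2.84 (without null library A) to -1.05 (without null library B), *tm7sf2* from -3.62 (without null library A) to -1.61, *scdb* from 0.19 (without null library C) to 1.44 and *abca1b* from 2.69 to 4.50. Over all 4 repeats, log2 fold changes turned to 0.052 for *hmgcra*, -0.046 for *dhcr7* and -0.72 for *insig1*. *vldlr* turned to 0.048 in DESeq2, 0.053 with RLE factors and 0.060 in DESeq2 with the replicate block. Without 1 library, *hmgcra* ranged from -1.56 to 0.48 (turned without null library C, at 0.34, or sibling library B), *cyp51* from -0.38 (without null library B) to 10.12 (without sibling library A, which leaves siblings at 0 reads, so that the value depends on the prior count), *dhcr7* from -0.011 (without null library C) to 2.80, *sc5d* from -1.01 (without null library A; -0.39 without sibling library B) to 0.77, *hmgcrb* from -0.53 (without null library C) to 3.97, *abca1a* from -0.16 (without null library C) to 2.71 and *vldlr* from -0.23 to 0.066 (without null library C). The cause was not tested. Counts without null library C and orders on gene reads alone were added after seeing the data. With 3 libraries a genotype and reads absent from single libraries, moderate differences of these genes were not detectable.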
